A study of Mus musculus with 32 samples.

Results

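Low-dose disulfiram given with a high-fat diet was followed in the livers of 4 HFDL mice against 5 HFD mice, 9 of the 27 mice whose arrays had full signal and of 30 mice in the series. The members are the HFDL mice numbered 7, 8, 9 and 11 and the HFD mice numbered 1 to 5 in the deposited intensity table. HFD mouse 2 was measured on 2 arrays (Pearson's r = 0.9958 across probes), which were averaged. HFDL replicate 10 was left out because its array detected 23.7% of the probes and is given as a check. All were male C57BL/6J mice, put on their diets at 16 weeks of age, fed for 40 weeks and 56 weeks old at sampling, as the labels state. HFDL mice ate a diet with 61% of its calories from fat and 2.33 g disulfiram (DSF) per kg of food, for a labelled dose of 100 mg/kg a day. HFD mice ate the same fat content without DSF. The other groups used for comparison were HFDH (the same fat, 2.67 g/kg, 200 mg/kg a day, 4 mice), SDL (a standard diet with 17% of calories from fat and 1 g/kg DSF, 100 mg/kg a day, 5 mice) and SD (the standard diet alone, 5 mice). The labelled food contents of HFDL and HFDH lie closer together than their labelled doses. SDH mice (200 mg/kg a day on the standard diet, 4 mice) entered the fit and are shown in the plot of all 6 groups.

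DSF blocks aldehyde dehydrogenases and has long been prescribed for alcohol dependence. On a high-fat diet the liver stores surplus fatty acids as triglyceride in lipid droplets, whose coat proteins, fusion proteins and lipases set how much fat is held and released. Genes of lipid storage in mouse liver include several targets of the nuclear receptor PPAR-gamma. Cytochromes P450 of the Cyp2b group are induced in liver by many drugs through the nuclear receptor CAR.

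Levels are log2 intensities of Illumina probes, Z-normalized on each array and returned to a log2 scale, so that a level of 0 is the mean of all probes on the array. Levels are compared between mice for 1 probe and not between genes. The 4 HFDL arrays detected 44.2% to 46.5% of the probes and the HFD arrays 45.3% to 48.8%. The median correlation with mice of the same group was 0.986 to 0.989 in HFDL and 0.989 to 0.993 in HFD. The hepatocyte genes Apoa1, Ttr, Hnf4a and Cps1 were detected in all 9 mice, and the probe of Alb in 1 of 4 HFDL and 3 of 5 HFD mice. Of pancreatic acinar markers Prss2 and Cpa1 were detected in none of the 9 and Cela1 and Amy2a5 in all 9. Of bile duct markers Krt19 was detected in none, Krt7 in 3 of 4 HFDL and 3 of 5 HFD mice and Sox9 in all, and of adipocyte markers Plin1 in none, Adipoq in 1 HFDL and 1 HFD mouse and Lep in 1 HFDL and 2 HFD mice. In whole liver, fewer cells of a type and less RNA per cell cannot be told apart.

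Low-dose DSF on HFD went mostly with lower mRNA levels. Of 9972 genes tested with limma, 46 (0.461%) passed an adjusted p of 0.05, with 7 higher (0.0702%) and 39 lower (0.391%) in HFDL than in HFD livers. The larger falls were those of the lipid droplet gene Cidea, the membrane protein gene Mmd2, the synaptic adhesion gene Clstn3 and the galectin gene Lgals1, and the largest rise was that of Cyp2b10. In 36 of the 39 lower genes every HFDL mouse lay below every HFD mouse, and in 7 of the 7 higher genes above. Over all genes tested the 2 groups did not overlap in 3.2% with HFDL lower and in 1.7% with HFDL higher. The groups overlapped for Tceal8, Paqr7 and Dusp22. The difference was under 1 log2 unit for 30 of the 46 genes, and its median was -0.79 among the lower and 0.98 among the higher genes, beside -0.02 over all genes. Of the 46, 42 carry a gene symbol, and 17 passed in all of the 9 fits that left out 1 HFDL or HFD mouse.

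**Figure D1:**
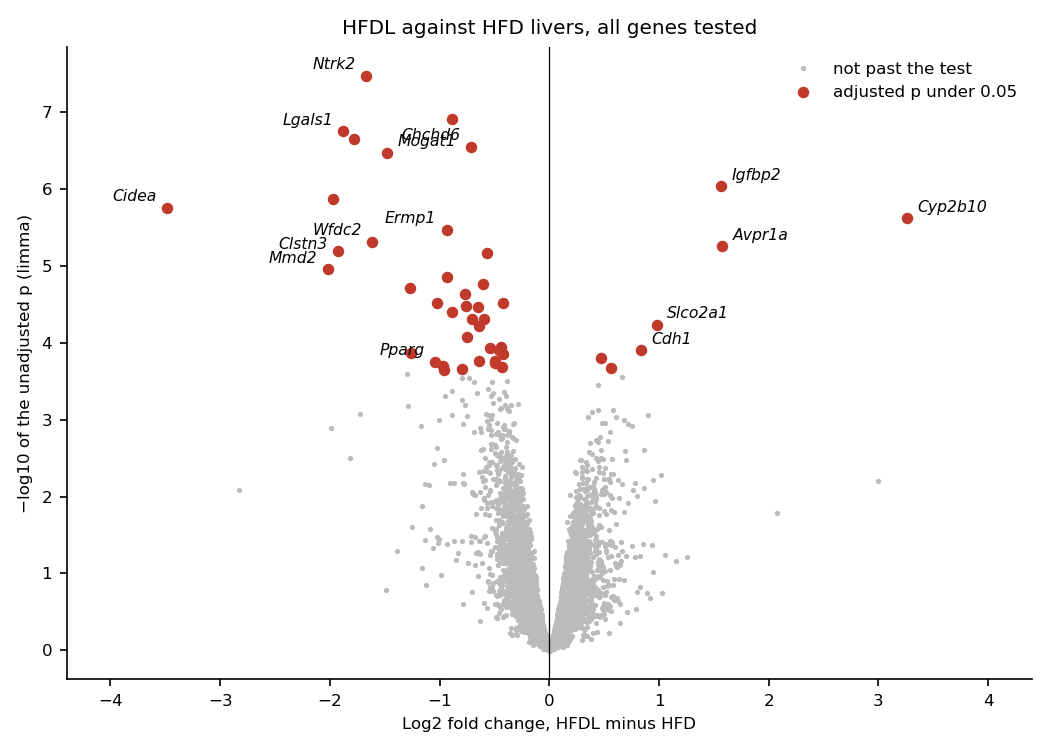
Log2 fold change (HFDL minus HFD, horizontal) against −log10 of the unadjusted limma p (vertical) for 9972 genes, with the 46 genes past an adjusted p of 0.05 in red. Of these, 39 lie left of 0 and 7 right of it, and Cidea and Cyp2b10 lie farthest out.

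Among genes of lipid storage, Cidea, Mogat1 and Pparg fell. Cidea, which promotes the fusion of lipid droplets, lay at -0.79, 0.67, -0.42 and -0.89 in HFDL mice and at 3.50, 3.88, 2.02, 3.17 and 3.05 in HFD mice. It was detected in 2 of 4 HFDL and 5 of 5 HFD mice, and all HFDL values were below the lowest HFD value. The log2 fold change was -3.48 (standard error 0.56, adjusted p = 0.0019), and it was called in all 9 fits without 1 mouse. Mogat1, which makes diacylglycerol from monoacylglycerol, lay at -1.07, -1.23, -0.97 and -1.07 in HFDL and at 1.09, 0.15, 0.51, 0.55 and -0.32 in HFD mice. No HFDL mouse and all HFD mice were above background, so that Mogat1 was at least 2.28-fold lower in HFDL (adjusted p = 5.6e-04). Here and below an at-least fold sets each dim signal to no less than the lowest detected signal of its array and carries no sampling error. Pparg, the nuclear receptor gene of fat storage, lay at 0.89, 1.48, 1.08 and 0.69 in HFDL and at 2.19, 1.70, 1.58, 2.59 and 2.34 in HFD mice (log2 fold change -1.04, standard error 0.24, adjusted p = 0.044). Its highest HFDL value was just under its lowest HFD value, and it was called in 3 of the 9 fits without 1 mouse. The 2 other probes of Pparg were above background in 0 of 4 HFDL mice and in 4 and 5 of the 5 HFD mice, so that no fold is given (adjusted p = 0.056 and 0.09 with each probe tested). Without DSF, the HFD-SD difference was 0.99 for Cidea, 0.39 for Mogat1 and 0.08 for Pparg (limma adjusted p = 0.41, 0.4 and 0.91). A rise of these genes with the diet was thus not called.

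The list of lipid droplet proteins and lipases had 16 members tested, of which 1 was called lower and 0 higher. At an unadjusted p under 0.05, 7 of the 16 had a negative and 0 a positive difference, beside 6.79% and 3.82% of all genes, and the median over the list was -0.23. The same shares stand beside the unadjusted counts of every list below. The lists were chosen with earlier results of these data known, so a count above these shares is no test of a list. Cidec, a relative of Cidea, lay at 0.27, 0.67, 0.37 and -0.01 in HFDL and at 2.43, 1.72, 1.67, 2.54 and 1.88 in HFD mice, with no overlap (log2 fold change -1.72, standard error 0.46, adjusted p = 0.1). Fitm1, which aids the budding of droplets, differed by -0.95 (adjusted p = 0.08), and Plin3, a droplet coat protein, by -0.44 (adjusted p = 0.37). In the list of triglyceride synthesis and fatty acid uptake, 2 of 21 tested genes were called lower, 0 were called higher, 4 had a negative and 0 a positive difference at the unadjusted p, and the median was -0.19. Besides Mogat1 and Pparg these were Vldlr, the receptor of very-low-density lipoprotein (-1.05, adjusted p = 0.2), and Gpat3, an acyltransferase (-0.69, adjusted p = 0.27). Of 21 tested genes of fatty acid synthesis 0 were called and 0 passed the unadjusted threshold, beside 3.82% higher and 6.79% lower over all genes, and the median was 0.01. Fasn differed by -0.36 (adjusted p = 0.62) and Scd1 by 0.26 (adjusted p = 0.58), which was -0.04 with quantile normalization. Of 31 genes of fatty acid oxidation and PPAR-alpha targets, 0 were called, with 5 negative and 1 positive at the unadjusted p. Acot11, an acyl-CoA thioesterase that the study names, lay at -0.22, 0.47, 0.03 and 0.01 in HFDL and at 0.91, 0.83, 0.55, 0.91 and 1.03 in HFD mice (log2 fold change -0.78, adjusted p = 0.24).

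**Figure D2:**
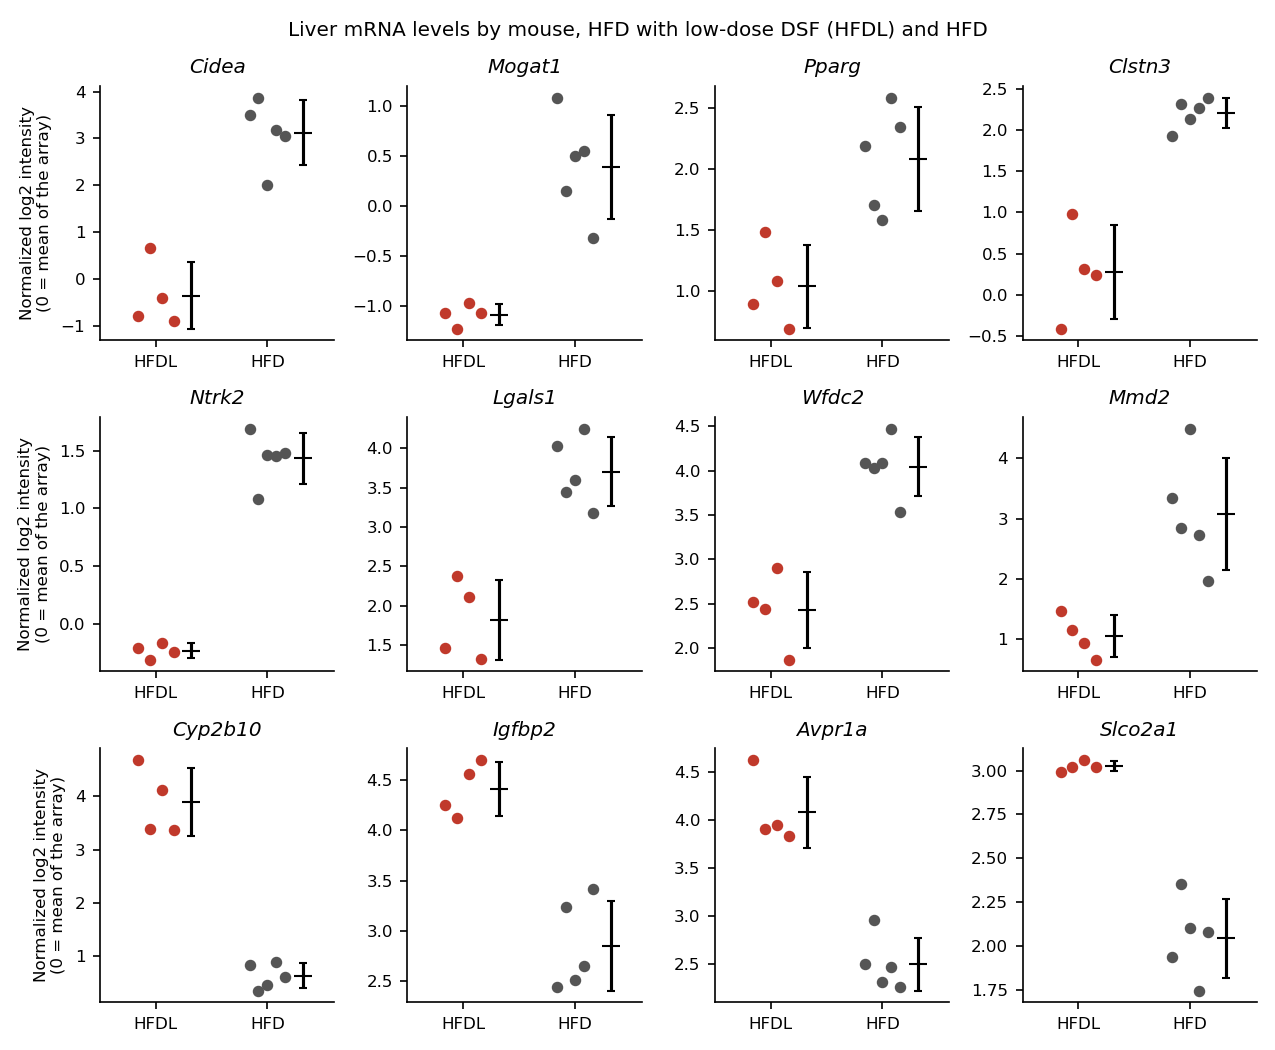
Normalized log2 intensity (0 is the mean of the array) of 12 genes past the test in 4 HFDL mice (red) and 5 HFD mice (grey), 1 point a mouse, with the mean and SD as a black bar beside each group. The groups do not overlap in any of the 12, with HFDL lower in the upper 2 rows and higher in the bottom row.

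The receptor and adhesion genes Ntrk2, Clstn3 and Igsf11 fell, while Avpr1a and Cdh1, described below, rose. Ntrk2, a receptor tyrosine kinase for the neurotrophin BDNF, had the smallest p of all genes. It lay at -0.21, -0.31, -0.16 and -0.25 in HFDL mice and at 1.69, 1.08, 1.46, 1.45 and 1.48 in HFD mice (log2 fold change -1.67, standard error 0.21, adjusted p = 3.4e-04). The HFDL values spanned far less than the gap between the groups. Clstn3, a calsyntenin of the cell surface, lay at -0.41, 0.98, 0.31 and 0.24 in HFDL and at 1.92, 2.32, 2.14, 2.27 and 2.39 in HFD mice (log2 fold change -1.93, standard error 0.34, adjusted p = 0.0045). The gene's other detected probe differed by -0.29 only (adjusted p = 0.27 with each probe tested), so its 2 probes disagreed in size. Of 24 tested receptors and ligands of axon guidance and cell adhesion, 2 were called lower and 0 higher, and 6 had a negative and 1 a positive difference at the unadjusted p (median -0.09). Robo1, a receptor of Slit proteins, lay at 0.53, 1.06, 0.28 and -0.23 in HFDL and at 2.82, 1.32, 2.23, 1.48 and 0.63 in HFD mice, where HFD replicate 5 fell within the HFDL range (log2 fold change -1.29, adjusted p = 0.096). Efna5, an ephrin, differed by -0.44 (adjusted p = 0.14). Igsf11, an adhesion molecule of the immunoglobulin family, fell by 0.49 on the log2 scale (adjusted p = 0.044), and its 2 other probes differed by -0.50 and -0.20 (adjusted p = 0.13 and 0.31 with each probe tested).

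Lgals1, which encodes galectin-1, a secreted sugar-binding protein, lay at 1.47, 2.38, 2.12 and 1.33 in HFDL mice and at 4.03, 3.45, 3.60, 4.25 and 3.17 in HFD mice (log2 fold change -1.88, standard error 0.26, adjusted p = 5.6e-04). Anxa5, a phospholipid-binding annexin, lay at 3.98, 4.01, 3.98 and 3.74 in HFDL and at 5.28, 4.83, 4.51, 5.49 and 4.34 in HFD mice (log2 fold change -0.97, standard error 0.22, adjusted p = 0.047). Both genes were lower in every HFDL mouse, Lgals1 in all 9 fits without 1 mouse past the test and Anxa5 in 2 of them. Anxa2, another annexin, differed by -1.30 (adjusted p = 0.053), with HFD replicate 5 at 3.13 inside the HFDL range of 2.59 to 3.14. Over 17 tested galectins and annexins, 2 were called lower and 0 higher, 3 had a negative and 0 a positive difference at the unadjusted p, and the median was -0.10. Wfdc2, a secreted protein with protease inhibitor domains, lay at 2.51, 2.44, 2.90 and 1.86 in HFDL and at 4.08, 4.03, 4.09, 4.47 and 3.54 in HFD mice (log2 fold change -1.61, standard error 0.28, adjusted p = 0.004). A second probe of Wfdc2 differed by -1.08 (adjusted p = 0.0052 with each probe tested). Mmd2, a membrane protein of the progestin and adipoQ receptor family, lay at 1.48, 1.15, 0.94 and 0.66 in HFDL and at 3.34, 2.84, 4.49, 2.73 and 1.97 in HFD mice (log2 fold change -2.02, standard error 0.37, adjusted p = 0.0069). Paqr7, of the same family, fell by 1.26 (adjusted p = 0.039), with HFDL replicate 11 at 1.94 inside the HFD range and a call in 2 of the 9 fits without 1 mouse. Chil1, a chitinase-like secreted protein, was detected in 0 of 4 HFDL and 4 of 5 HFD mice and was at least 1.35-fold lower in HFDL (adjusted p = 0.048). Outside HFD it was detected in 2 SD mice only. It thus passed the filter of 5 detected mice through HFD, and its p is conditional on that.

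Several falls were in genes of mitochondria, sterols and sugar. Chchd6, a subunit of the complex that shapes mitochondrial cristae, lay at -0.31, -0.23, -0.21 and -0.03 in HFDL mice and at 0.53, 0.45, 0.64, 0.63 and 0.35 in HFD mice (log2 fold change -0.72, standard error 0.10, adjusted p = 5.6e-04). Of 7 tested genes of the cristae organisers it was the 1 called, and of 69 tested genes of oxidative phosphorylation 0 were called, with 1 positive and 1 negative at the unadjusted p (median -0.03). Osbpl3, an oxysterol-binding protein, lay at -0.88, -0.15, -0.87 and -0.86 in HFDL and at 1.08, -0.04, 0.12, 0.53 and -0.02 in HFD mice (log2 fold change -1.03, standard error 0.20, adjusted p = 0.014). HFDL replicate 8 was the only HFDL mouse in which Osbpl3 was detected. Osbpl3 was the 1 call among 24 tested genes of cholesterol synthesis and sterol control. Treh, which splits trehalose into glucose, lay at -0.03, 0.26, 0.09 and 0.19 in HFDL and at 1.29, 0.74, 0.91, 1.26 and 1.09 in HFD mice (log2 fold change -0.93, standard error 0.17, adjusted p = 0.0082). Treh was the 1 call among 26 tested genes of insulin signalling and glucose metabolism, a list in which Hk2, a hexokinase, differed by -1.01 (adjusted p = 0.43). Acad12, an acyl-CoA dehydrogenase family member, fell by 0.59 (adjusted p = 0.018), and Lyplal1, a lysophospholipase-like protein, by 0.75 (adjusted p = 0.028), with a second Lyplal1 probe at -0.55 (adjusted p = 0.0055 with each probe tested).

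Nfe2l2, the gene of the antioxidant regulator NRF2, lay at 0.71, 1.02, 0.87 and 0.96 in HFDL mice and at 1.30, 1.45, 1.26, 1.55 and 1.37 in HFD mice (log2 fold change -0.50, standard error 0.11, adjusted p = 0.044). It was called in 1 of the 9 fits without 1 mouse. Of 29 tested genes of NRF2 and antioxidant defence it was the 1 called, with 3 negative and 2 positive at the unadjusted p and a median of -0.05, and Gpx4, the peroxidase of lipid hydroperoxides, differed by -0.40 (adjusted p = 0.12). Glutathione transferases had 0 calls among 20 tested. Gsta1 lay at -0.27, 0.59, 0.74 and -0.03 in HFDL and at 3.18, 1.60, 1.82, 3.55 and 0.20 in HFD mice (log2 fold change -1.82, adjusted p = 0.19), and Gsta2 differed by -1.16 (adjusted p = 0.31). In both, HFD replicate 5 lay within the HFDL range, and for Gsta2 HFD replicate 2 did as well. Aldehyde dehydrogenases, the enzyme family that DSF inhibits, had 0 calls among 19 tested, with 5 negative and 1 positive at the unadjusted p and a median of -0.01. Aldh1b1, a mitochondrial member, lay at 1.5, 0.55, 1.04 and 0.35 in HFDL and at 2.54, 1.79, 2.85, 1.61 and 1.34 in HFD mice (log2 fold change -1.17, adjusted p = 0.12), and Aldh1a7 differed by -0.64 (adjusted p = 0.22).

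The remaining falls were spread over signalling, membrane and trafficking genes. Tceal8, a transcription elongation factor-like protein, lay at 2.02, 2.46, 2.06 and 2.03 in HFDL and at 4.07, 3.48, 3.29, 3.76 and 2.46 in HFD mice, where HFD replicate 5 and HFDL replicate 8 met at the same level (log2 fold change -1.27, adjusted p = 0.01). Ermp1, a metallopeptidase of the endoplasmic reticulum, lay at 1.98 to 2.24 in HFDL and 2.83 to 3.32 in HFD mice (log2 fold change -0.94, standard error 0.16, adjusted p = 0.0031). Gal3st1, which makes sulfatide, fell by 0.96 (adjusted p = 0.048) and was detected in 2 of 4 HFDL mice. Pigp, of glycosylphosphatidylinositol anchor synthesis, fell by 0.89 (adjusted p = 0.016). Both phosphatase genes Dusp19 (-0.56, adjusted p = 0.0046) and Dusp22 (-0.44, adjusted p = 0.036) fell, as did the phospholipase C gene Plcb3 (-0.43, adjusted p = 0.048) and the ubiquitin ligase gene Marchf8 (-0.54, adjusted p = 0.036). Membrane and trafficking genes that fell were Fam126a (-0.77, adjusted p = 0.012), Tmem184a (-0.76, adjusted p = 0.014), the choline transporter-like Slc44a3 (-0.70, adjusted p = 0.018), Tmem237 (-0.64, adjusted p = 0.021), the granule docking gene Sytl4 (-0.64, adjusted p = 0.044, detected in 1 of 4 HFDL mice) and the coatomer subunit gene Copz2 (-0.46, adjusted p = 0.037). Other probes gave smaller differences for Tmem184a (-0.16, adjusted p = 0.63 with each probe tested) and Tmem237 (-0.31, adjusted p = 0.2), and the remaining Tmem237 probe was detected in 0 HFDL mice and 1 HFD mouse. Copz2 was read by 4 detected probes, whose differences were -0.46, -0.46, -0.61 and -0.44. Hsbp1, which binds heat shock factor, had narrow groups, at 3.12, 3.05, 2.99 and 3.08 in HFDL and 3.49, 3.49, 3.50, 3.46 and 3.48 in HFD mice (log2 fold change -0.42, standard error 0.08, adjusted p = 0.014). Tafa5, a secreted protein of the brain, fell by 0.42 (adjusted p = 0.039) and was detected in 1 of 4 HFDL mice. Bex4 was detected in 0 of 4 HFDL and 4 of 5 HFD mice and was at least 1.16-fold lower (adjusted p = 0.0096). Outside HFD it was detected in 1 SD mouse only. It thus passed the filter of 5 detected mice through HFD, and its p is conditional on that. The 4 probes without a symbol also fell. ILMN_3158725 differed by -1.97, ILMN_3079461 by -1.78 and ILMN_1221257 by -0.89 (adjusted p = 0.0017, 5.6e-04 and 5.6e-04), and ILMN_2625279, detected in no HFDL mouse, was at least 1.21-fold lower (adjusted p = 0.014). Outside HFD, ILMN_2625279 was detected in 2 SD mice only, so that it too passed the filter through HFD.

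The 7 genes that rose were Cyp2b10, Igfbp2, Avpr1a, Slco2a1, Cdh1, Pla1a and Mfsd4b1. Cyp2b10, a drug-metabolizing P450, lay at 4.69, 3.38, 4.12 and 3.38 in HFDL mice and at 0.83, 0.35, 0.46, 0.89 and 0.61 in HFD mice (log2 fold change 3.26, standard error 0.54, adjusted p = 0.0024). It was detected in all 9. The lowest HFDL mouse stood more than 2 log2 units above the highest HFD mouse. A second probe of Cyp2b10 was detected in 4 of 4 HFDL and 0 of 5 HFD mice, so that no fold is given, and did not pass the test (adjusted p = 0.24 with each probe tested). The probe sequences were not used here, so the share of signal from near relatives of Cyp2b10 was not tested. Of 23 tested targets of CAR and PXR, Cyp2b10 included, 1 was called higher (Cyp2b10) and 0 lower, with 2 positive and 4 negative at the unadjusted p and a median of -0.04. Every HFDL mouse lay above every HFD mouse for 4 of the 23 and below for 1, beside 1.7% and 3.2% of all genes tested. Cyp2b13, a P450 higher in female than in male mouse liver, lay at 2.26, -0.35, -0.26 and -0.84 in HFDL and at 3.66, 1.67, 3.54, 2.35 and -0.25 in HFD mice (log2 fold change -1.99, adjusted p = 0.12). Of 26 other cytochromes P450, 0 were called, and 6 had a positive and 0 a negative difference at the unadjusted p (median 0.26). Cyp1a2 lay at 5.87, 6.09, 5.86 and 5.48 in HFDL and at 4.24, 5.12, 4.89, 4.88 and 5.49 in HFD mice (log2 fold change 0.90, adjusted p = 0.1), and Cyp4f14 differed by 0.61 (adjusted p = 0.11).

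Igfbp2, a blood protein that binds insulin-like growth factors, lay at 4.25, 4.12, 4.57 and 4.71 in HFDL mice and at 2.44, 3.24, 2.51, 2.65 and 3.41 in HFD mice (log2 fold change 1.56, standard error 0.24, adjusted p = 0.0013). A second Igfbp2 probe gave 1.68 (adjusted p = 0.0021 with each probe tested). Of 18 tested genes of the insulin-like growth factor system it was the 1 called, and the median was 0.07. Avpr1a, the vasopressin receptor of hepatocytes, lay at 4.63, 3.91, 3.95 and 3.83 in HFDL and at 2.50, 2.96, 2.31, 2.47 and 2.26 in HFD mice (log2 fold change 1.58, standard error 0.28, adjusted p = 0.0042). It was the 1 call among 16 tested hormone receptors of hepatocytes, and its second probe gave 1.14 (adjusted p = 0.054 with each probe tested). Slco2a1, a prostaglandin transporter, lay at 2.99, 3.02, 3.06 and 3.02 in HFDL and at 1.94, 2.35, 2.11, 1.75 and 2.08 in HFD mice (log2 fold change 0.98, standard error 0.20, adjusted p = 0.021). Cdh1, the epithelial cadherin, lay at 1.00, 0.72, 1.20 and 1.37 in HFDL and at 0.13, 0.69, 0.02, 0.08 and 0.28 in HFD mice (log2 fold change 0.84, standard error 0.18, adjusted p = 0.037). Cdh1 was the 1 call among 23 tested cadherins, claudins and junction genes and was called in 3 of the 9 fits without 1 mouse. Pla1a, a phosphatidylserine phospholipase, lay at 3.50 to 3.77 in HFDL and at 2.88 to 3.24 in HFD mice (log2 fold change 0.56, adjusted p = 0.048), and Mfsd4b1, a sugar transporter-like protein, at 3.05 to 3.22 in HFDL and 2.45 to 2.88 in HFD mice (0.47, adjusted p = 0.042). Without 1 mouse Pla1a was called in 1 and Mfsd4b1 in 2 of the 9 fits, and the 2 other probes of Pla1a differed by 0.35 and 0.47 (adjusted p = 0.42 and 0.25 with each probe tested).

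The start regions of 3 of these genes are shown because Cyp2b10 and Igfbp2 were among the largest rises and Mogat1 was the fall in lipid synthesis that reached background. Each holds 250 bases before and 50 from the annotated start on, 5′ to 3′ on the gene's strand, from RefSeq on GRCm38.p6. Capitals mark matches on either strand to the TATA box TATAAA, the CCAAT box CCAAT, the GC box GGGCGG and the nuclear receptor half-site AGGTCA. No match overlapped another motif's. For Igfbp2 the table lists 2 starts and the upstream one is given.
Cyp2b10, chr7:25897408-25897707, plus strand: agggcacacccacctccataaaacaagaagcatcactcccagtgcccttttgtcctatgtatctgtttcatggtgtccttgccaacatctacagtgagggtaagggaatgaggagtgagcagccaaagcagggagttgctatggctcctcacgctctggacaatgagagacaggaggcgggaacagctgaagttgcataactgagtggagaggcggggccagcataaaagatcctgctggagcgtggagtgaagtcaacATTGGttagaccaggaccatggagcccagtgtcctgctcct
Igfbp2, chr1:72824230-72824529, plus strand: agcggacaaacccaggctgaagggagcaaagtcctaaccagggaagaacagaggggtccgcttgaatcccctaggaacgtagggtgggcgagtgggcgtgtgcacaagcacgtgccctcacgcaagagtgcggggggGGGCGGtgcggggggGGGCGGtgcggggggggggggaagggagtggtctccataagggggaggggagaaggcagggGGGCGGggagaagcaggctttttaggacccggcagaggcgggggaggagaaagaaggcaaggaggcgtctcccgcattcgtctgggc
Mogat1, chr1:78510810-78511109, plus strand: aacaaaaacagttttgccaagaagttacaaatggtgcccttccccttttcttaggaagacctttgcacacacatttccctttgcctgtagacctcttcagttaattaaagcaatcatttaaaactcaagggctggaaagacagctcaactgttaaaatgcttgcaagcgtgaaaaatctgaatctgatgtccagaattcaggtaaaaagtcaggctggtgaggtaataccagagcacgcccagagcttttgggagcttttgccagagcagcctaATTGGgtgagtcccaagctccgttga
The Igfbp2 region held 3 GC boxes and had 67% G and C, the Cyp2b10 region held 1 CCAAT box (53%), and the Mogat1 region held 1 CCAAT box (43.7%). Of 46 start regions of 32 genes that fell, 31 (67.4%) held a GC box, beside 59.5% for the genes tested and 35.7% for all 32851 regions. A TATA box stood in 3 of the 6 start regions of 5 genes that rose (50%), in 2 of the 46 of genes that fell (4.35%), in 8% for the genes tested and in 13.6% of all. The half-site stood in 9 of the 46 (19.6%), beside 13.4% for the genes tested and 16.3% of all, and CCAAT in 18 (39.1%), beside 37.6% and 37.4%. The matches describe letters in these windows only.

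Apolipoprotein and hepatocyte marker genes had positive median differences without a call. Of 18 tested apolipoproteins and related genes, 0 were called, and 7 had a positive and 0 a negative difference at the unadjusted p (median 0.22). Apom lay at 5.35, 4.93, 5.44 and 5.14 in HFDL and at 4.23, 4.63, 4.74, 4.76 and 4.41 in HFD mice, with no overlap (log2 fold change 0.66, standard error 0.16, adjusted p = 0.058). Apoa5 differed by 0.57 (adjusted p = 0.28) and the lipoprotein receptor gene Scarb1 by 0.39 (adjusted p = 0.27). Of 9 tested hepatocyte markers 0 were called, 5 were positive at the unadjusted p and the median was 0.32. Cps1, of the urea cycle, differed by 0.49 (adjusted p = 0.19) and Serpina1a by 0.37 (adjusted p = 0.35). The mean level over these 9 markers was 6.34 to 6.74 in HFDL and 6.15 to 6.60 in HFD mice. These ranges overlap, and the part of hepatocyte RNA in the single differences was not tested. Before normalization the intensities of the bright probes also overlapped, with Apoa1 at 21000 to 26400 in HFDL and 21500 to 23500 in HFD mice and Ttr at 19100 to 25700 in HFDL and 20900 to 23000 in HFD mice. The standard deviation by which each array was divided was 1.80 to 1.87 in HFDL and 1.85 to 1.92 in HFD. With quantile normalization in its place the differences were 0.58 for Apom, 0.54 for Apoa5, 0.23 for Cps1 and 0.18 for Serpina1a, and with HFDL replicate 10 that of Cps1 was -1.02. Complement and coagulation genes had 0 calls among 31, with 3 positive and 0 negative at the unadjusted p (median 0.11), and bile acid genes 0 among 25, with 3 positive and 0 negative, among them Cyp27a1 (0.47, adjusted p = 0.18). The manganese transporter gene Slc30a10 lay at 2.93, 3.38, 3.24 and 3.19 in HFDL and at 2.39, 2.57, 2.50, 2.42 and 2.30 in HFD mice (log2 fold change 0.75, adjusted p = 0.12).

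Lysosomal genes, 38 tested, had 0 calls with 7 negative and 0 positive at the unadjusted p (median -0.13). Ppt1, Ctsz and Arsb differed by -0.38, -0.40 and -0.39 (adjusted p = 0.28, 0.31 and 0.31). Branched-chain amino acid breakdown, 21 tested, had 0 calls with 4 negative and 0 positive, led by Pcca, a subunit of propionyl-CoA carboxylase, at 3.24, 3.24, 3.30 and 2.70 in HFDL and 3.60, 3.59, 3.71, 3.79 and 3.51 in HFD mice (log2 fold change -0.52, adjusted p = 0.061). Among 28 autophagy genes 0 were called, and Atg10 differed by -0.39 (adjusted p = 0.099). Extracellular matrix genes, 35 tested, had 0 calls with 3 negative and 0 positive, beside 6.79% and 3.82% of all genes. Among them Col5a1 differed by -0.63 (adjusted p = 0.12), and Mmp12, a macrophage elastase detected in no HFDL mouse, lay at -1.01, -1.39, -1.11 and -1.24 in HFDL and at 1.26, -0.63, -0.87, 0.93 and -0.97 in HFD mice (adjusted p = 0.24). HFD replicates 1 and 4 stood above the other HFD mice for Mmp12 and likewise for Gpnmb, a gene of lipid-laden macrophages, at 1.62 and 1.79 against -0.25, -0.01 and -0.79 in the other HFD mice and -0.91 to -0.38 in HFDL mice. These replicates were also the highest HFD mice for Lgals1, Anxa5, Anxa2, Cidec and Gsta1. For Mmd2 HFD replicate 3 was highest, and for Clstn3 HFD replicate 5. Without replicate 1 limma called 23 genes in HFDL-HFD, and without replicate 4 it called 18.

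**Figure D3:**
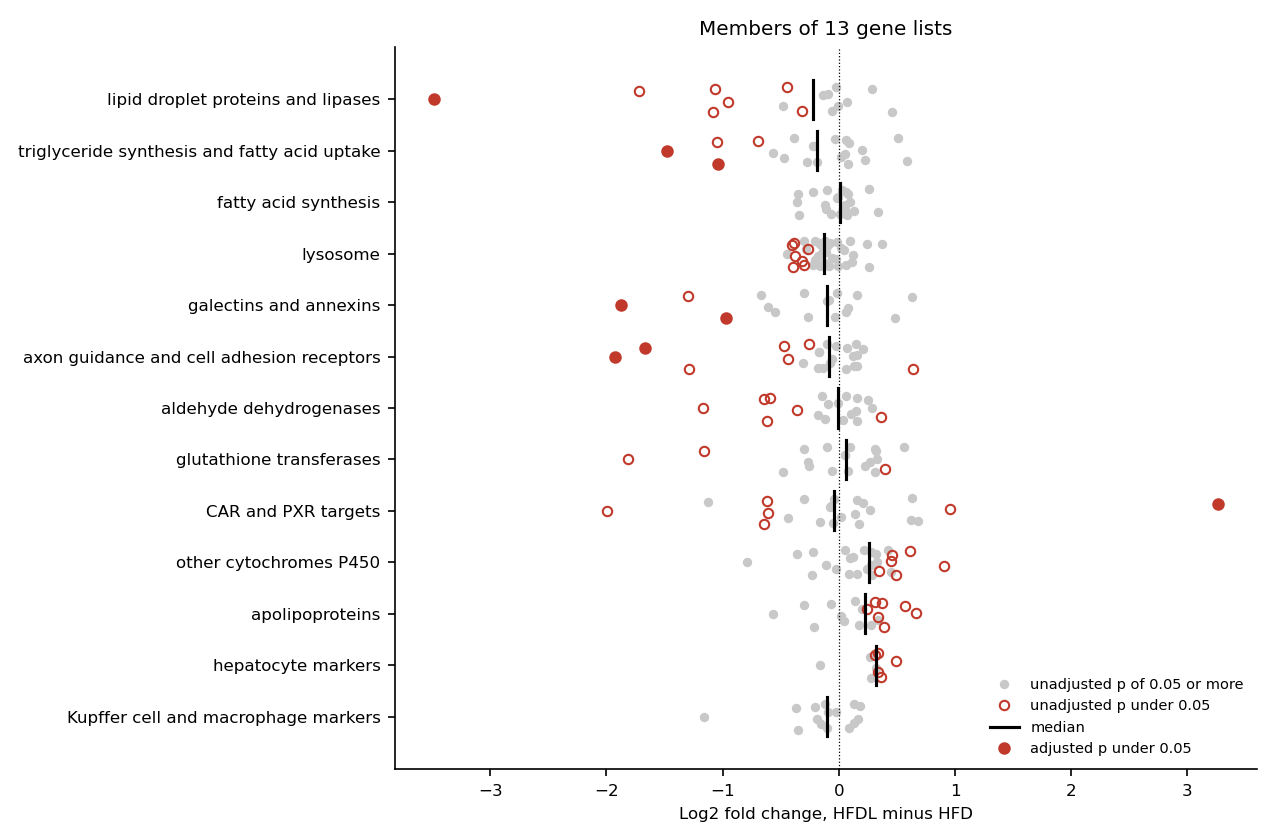
Log2 fold change (HFDL minus HFD) of each tested member of 13 gene lists, with filled red points past an adjusted p of 0.05, open red points at an unadjusted p under 0.05, grey points for the rest and a bar at the median. Lipid droplet genes have 7 red points left of 0, apolipoproteins 7 right of it, and fatty acid synthesis none.

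Markers of the other cell types of liver had 0 calls. Of 15 tested Kupffer cell and macrophage markers, 0 passed the unadjusted threshold, the median was -0.10, and the mean level was 1.46 to 1.79 in HFDL and 1.08 to 2.52 in HFD mice. Adgre1 differed by -0.37 (adjusted p = 0.71) and Gpnmb by -1.16 (adjusted p = 0.54). Of 12 stellate cell markers, 2 were negative and 0 positive at the unadjusted p (median -0.05, mean level 1.15 to 1.52 in HFDL and 1.18 to 1.64 in HFD). Of 12 sinusoidal endothelial markers, 1 was positive and 1 negative (median 0.10, mean level 1.68 to 1.74 in HFDL and 1.38 to 1.82 in HFD). Of 6 tested lymphocyte markers, 1 was positive (median 0.50), with a mean level of -0.80 to 0.99 in HFDL and -0.63 to -0.36 in HFD mice. Lymphocyte markers differed in detection. Cd3e was detected in 3 of 4 HFDL and 0 of 5 HFD mice and Cd79a in 2 and 0. Cd3g was detected in 3 of 4 HFDL and 5 of 5 HFD mice and Ptprc in 1 and 1. Pancreatic acinar markers, 8 tested, lay at -0.39 to -0.27 in HFDL and at -0.58 to -0.17 in HFD mice on average. The part of any of these cell types in the 46 calls was not tested.

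Male-biased liver genes varied within the HFD group. Of 21 tested, 0 were called, and 4 were positive and 0 negative at the unadjusted p (median 0.41). Hsd3b5, a steroid dehydrogenase of male liver, lay at 3.54, 3.93, 4.26 and 4.71 in HFDL mice and at -0.97, 3.72, -0.87, -0.56 and 4.22 in HFD mice (log2 fold change 3.0, standard error 1.01, adjusted p = 0.24). HFD replicates 2 and 5 thus lay with the HFDL mice and the other 3 HFD mice far below, and the part of this split in the calls above was not tested. Cyp7b1, an oxysterol hydroxylase, lay at 6.43, 6.12, 6.18 and 6.13 in HFDL and at 4.57, 5.97, 4.68, 5.02 and 6.52 in HFD mice, with the same 2 HFD mice highest (log2 fold change 0.86, adjusted p = 0.26), and Serpina1e differed by 1.02 (adjusted p = 0.22). Of 15 tested female-biased genes, 1 was called higher (Cyp2b10) and 1 lower (Ntrk2), with 1 positive and 4 negative at the unadjusted p (median -0.14). Of genes whose proteins the study names, Sod2 differed by 0.00, Sirt1 by 0.18, Il1b by -0.17, Acat1 by -0.38, Ido2 by 0.12 and Kynu by -0.14 (adjusted p = 1.0, 0.76, 0.88, 0.44, 0.9 and 0.89). The study reports changes of ACAT1, IDO2 and KYNU in livers of rats on a standard diet. In mouse liver it reports less acetylated SOD2 with DSF and, on HFD, less IL-1β protein. The mRNA differences above are thus another measure and, for Acat1, Ido2 and Kynu, of another species and diet. Cidea, Cidec, Igfbp2, Avpr1a, Acot11, Cyp2b13, Hk2, Cyp7b1 and Hsd3b5 were singled out by the study on these array data, and their direction here is not independent evidence. The study also checked array results by quantitative PCR and reports more liver IGFBP2 protein at the high dose whatever the diet. Raet1b, singled out likewise, matched no probe of the table.

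The high dose was set against the low dose on the same diet. In HFDH against HFDL, limma called 0 genes, with 588 of 9972 (5.9%) at an unadjusted p under 0.05. A fit with array weights over 30 mice called 4 and all other alternatives 0. For Cidea the HFDH level was -0.46 ± 1.01 and the HFDL level -0.36 ± 0.713 (SD, n = 4 each), a difference of -0.10 (standard error 0.59). Igfbp2 differed by 0.47 (standard error 0.26) between the doses, Ntrk2 by -0.33 (standard error 0.22) and Cyp2b10 by 0.70 (standard error 0.57). Of the 46 genes, 5 had an unadjusted p under 0.05 between the doses, which were Wfdc2 (-0.98), ILMN_3158725 (-0.96), ILMN_3079461 (-0.71), Cdh1 (0.49) and Lyplal1 (-0.38), with adjusted p from 0.74 to 0.81. Against the HFD mice shared by both comparisons, the log2 fold changes of Igfbp2 were 1.56 in HFDL and 2.03 in HFDH, those of Wfdc2 -1.61 and -2.59, those of Mogat1 -1.48 and -1.57, those of Hsbp1 -0.42 and -0.33 and those of Plcb3 -0.43 and -0.31.

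The low dose on the standard diet used other mice, apart from the spread that the fit shares. In SDL against SD 63 of 9972 genes (0.632%) were called. Of the 46 genes called in HFDL against HFD, 14 were also called there in the same direction and 0 in the opposite one. These 14 were Cidea, Ntrk2, Mogat1, Osbpl3, Chchd6, Tmem237, Nfe2l2, Hsbp1, Cyp2b10, Igfbp2, Slco2a1, Cdh1, ILMN_3158725 and ILMN_3079461. Cidea had log2 fold changes of -3.48 on HFD and -2.76 on SD, Cyp2b10 3.26 and 3.53, and Hsbp1 -0.42 on both diets. The sign was the same on both diets for 43 of the 46, and the share of same sign over all genes was not computed. It was opposite for Marchf8, Plcb3 and Mfsd4b1, which are described for that reason, after their values were seen. Marchf8 lay at 0.49 ± 0.104 in HFDL and 1.03 ± 0.214 in HFD mice (n = 4 and 5), and at 1.10 ± 0.118 in SDL and 0.93 ± 0.19 in SD mice (SD, n = 5 each). Mfsd4b1 lay at 3.14 ± 0.0704 in HFDL and 2.68 ± 0.171 in HFD mice, and at 2.76 ± 0.076 in SDL and 2.94 ± 0.224 in SD mice. The difference of the 2 differences was -0.72 for Marchf8 (standard error 0.16), -0.59 for Plcb3 (0.14), 0.65 for Mfsd4b1 (0.14) and -0.53 for Dusp19 (0.14), with adjusted p from 0.4 to 1.0. Over all genes limma called 0 differences between the diets, with 420 (4.21%) at an unadjusted p under 0.05, and the alternatives called 0 to 3. Of the 46 genes, 19 were among these 420. The 46 were picked by HFDL-HFD, which is part of this difference, so their share cannot be set against 4.21%.

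**Figure D4:**
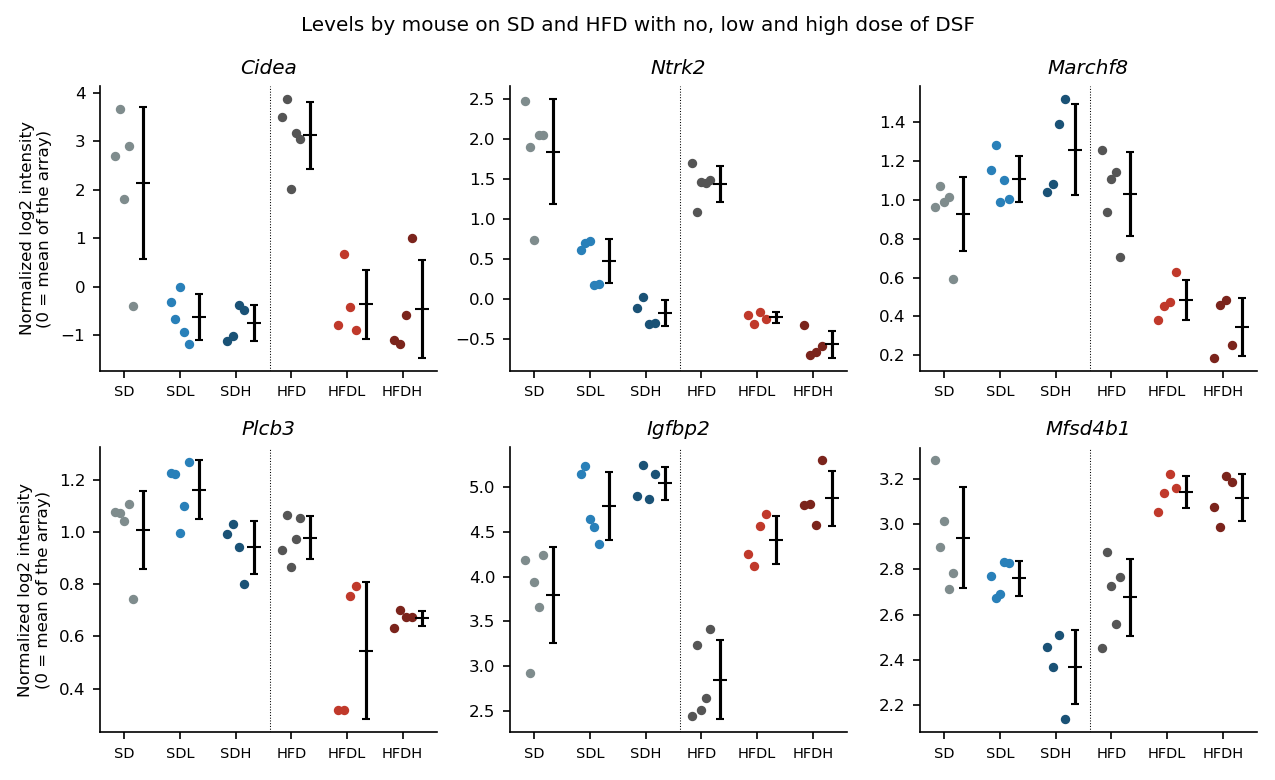
Normalized log2 intensity (0 is the mean of the array) of 6 genes in SD, SDL, SDH, HFD, HFDL and HFDH mice, 1 point a mouse, with the mean and SD as a black bar beside each group. Marchf8, Plcb3 and Mfsd4b1 are the genes of opposite sign on the 2 diets, and Cidea, Ntrk2 and Igfbp2 were called at the low dose on both.

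HFDL replicate 10 was added back as a check. Its array had a standard deviation of log2 intensity of 1.08, against 1.80 to 1.87 for the other HFDL arrays, so that the scaling stretches its differences. With it, 27 genes were called, 26 of them among the 46. In that scaling its level lay on the HFDL side of the HFD mean for 36 of the 46 genes and beyond every HFD mouse for 34, and 26 of the 46 probes were detected on its array. The shares of all genes at these positions were not computed. Of the 46 genes 39 were called lower, the side to which a lost signal moves a probe, so these counts cannot support the calls. Cidea was at -0.94, Ntrk2 at -0.63, Lgals1 at 1.21 and Igfbp2 at 6.19 there, all beyond the HFD mice. Cidea and Ntrk2 were not detected on this array, while Lgals1 and Igfbp2 were. Brighter probes were lost on it too, with Copz2 at -0.52 (other HFDL mice 2.89 to 3.22) and Hsbp1 at -0.57 (2.95 to 3.08). An undetected probe reads low in either case. For undetected genes, Slco2a1 among them, the side therefore cannot tell the group from the array. Slco2a1 was at -0.30, Pla1a at 0.40 and Mfsd4b1 at 0.24, below the HFD mice, and Dusp19 at 2.97, Lyplal1 at 3.21 and Tmem184a at 3.56, above them. With replicate 10 the fold changes of Pla1a and Mfsd4b1 turned to -0.09 and -0.11.

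**Figure D5:**
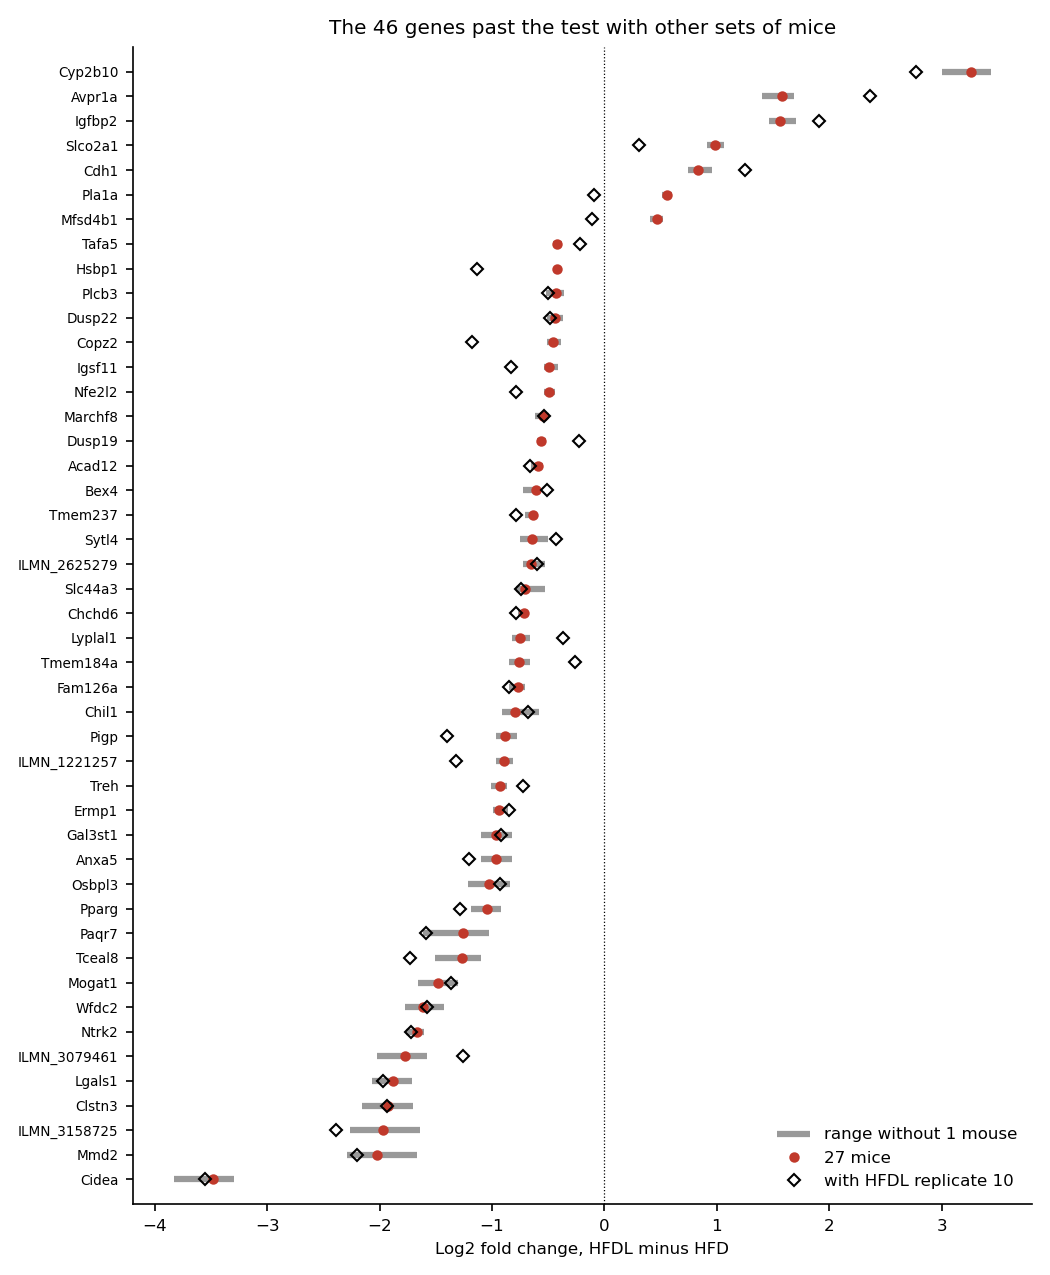
Log2 fold change (HFDL minus HFD) of the 46 genes past the test in the 27 mice (red points), its range over 9 fits that each left out 1 HFDL or HFD mouse (grey bars), and its value with HFDL replicate 10 added (open diamonds). The grey bars stay on 1 side of 0 for all 46, and the diamonds of Pla1a and Mfsd4b1 cross it.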

How the data were processed

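Liver RNA of 30 male mice in 6 groups was read on 32 Illumina MouseRef-8 v2 arrays. The authors extracted linear probe intensities with GenomeStudio (version 2011.1, per the submitters' processing notes) and deposited them without visible background subtraction or normalization. GenomeStudio's detection p-value of each probe was deposited beside each intensity. A second deposited table holds the authors' Z-normalized score of each probe, used in alternatives only. Its DSF columns carry other replicate numbers than the intensity table, so that HFDL replicate 10 could not be left out there.

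Each array's log2 intensities were reduced by their mean over 25697 probes and scaled to unit standard deviation, and the result was multiplied by 1.89, the average of the arrays' standard deviations in the 27 mice used. The arrays of 3 mice with under 35% of probes detected were left out. A probe was kept where 5 or more mice had a detection p under 0.05 (for the mouse with repeat arrays, the mean detection p), and the brightest probe stood for each gene. Gene symbols are those of the platform table (23978 probes with 1 symbol and 1719 with none, which stood for themselves). Precision rests on signal over background and on 4 and 5 mice.

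The 27 mice were fitted with limma (version 3.58.1, R 4.3.3), with a mean for each group and moderated variances, and p-values were adjusted by Benjamini-Hochberg across the genes of a comparison. The comparisons were HFDL-HFD, HFDH-HFDL and the difference between HFDL-HFD and SDL-SD. All adjusted p are from this fit unless stated, and standard errors are of log2 fold changes. The spread is shared by all groups. Alternatives were quantile normalization, neqc, detection filters, each probe tested, other sets of mice, array weights, only the groups compared, the authors' scores and the methods' criteria (p under 0.05 in a z-test and a one-way test, z-ratio beyond 1.5 in size and FDR under 0.3). The fit without SD replicate 2 and SDH replicate 17 was chosen after seeing the data. Named genes are all those called, those the study names, and of each described list its called members and otherwise those of smallest p, up to 4. The members and the 49 gene lists were chosen with earlier results of these data known.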

Additional observations from a re-analysis of the deposited data

Results flagged for a closer look

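A value stood apart from the rest of its group by Dixon's gap test in 17 of 188 groups of values tested, where chance flags about 1 in 20 groups. The 17 include the flags of the array of HFDL replicate 10, which was left out for its low share of probes detected. Those flags cannot be set against the chance rate. Among the genes called, HFDL replicate 8 was apart for Tceal8 (2.46, others 2.02 to 2.06), Osbpl3 (-0.15, others -0.88 to -0.86) and Sytl4 (-0.69, others -1.11 to -1.07), each time nearer to the HFD mice. HFDL replicate 11 was apart for Anxa5 (3.74, others 3.98 to 4.01), and HFDL replicate 7 for Pigp (2.12, others 2.52 to 2.56) and Avpr1a (4.63, others 3.83 to 3.95), each time farther from the HFD mice. HFD replicate 1 was apart for Sytl4 (0.23, others -0.55 to -0.42).

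Among genes not called, HFDL replicate 11 was apart for Pcca (2.70, others 3.24 to 3.30), Aldh1a7 (3.31, others 4.12 to 4.26), Cyp27a1 (6.16, others 6.67 to 6.75) and Atg10 (1.70, others 1.91 to 1.93). HFD replicate 3 was apart for Cps1 (7.65, others 6.79 to 6.98) and Ctsz (2.47, others 2.95 to 3.13), and HFD replicate 1 for Ppt1 (1.29, others 0.86 to 0.95).

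The array of HFDL replicate 10 was flagged for the share of probes detected (23.7%, others 44.2% to 46.5%). It was also flagged for the standard deviation of log2 intensity (1.08, others 1.80 to 1.87). The array had been left out because of that low share, so the flag on the share was fixed beforehand and is no separate finding. The flag on the standard deviation is of the same array. The first array of HFD replicate 2 was apart in its median intensity (69) from those of the other HFD mice (61 to 63), while the second array of the same mouse was at 66.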

How the results depend on the processing

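All adjusted p here are from limma. The 46 calls of HFDL-HFD (7 higher, 39 lower) were 36 with quantile normalization, 39 with neqc, 39 with no filter on detection, 42 with a stricter one and 64 probes with each probe tested. They were 27 (2 and 25) with HFDL replicate 10, 30 (6 and 24) with only the groups compared, 6 (0 and 6) with all 30 mice and 420 (105 and 315) over 30 mice with array weights, where all 46 were among the 420. The methods' criteria passed 471 genes (145 and 326). The authors' scores of all 30 mice gave 6 calls (0 and 6). With the replicate block on these scores they gave 7 (0 and 7), from numbers that are not stated to pair mice. The numbers of the intensity table could not be blocked, since its DSF columns number the mice 7 to 17 and the others 1 to 5. Leaving out 1 mouse gave 18 to 56 calls (3 to 9 higher, 15 to 47 lower), with 18 without HFD replicate 4, 23 without HFD replicate 1, 24 without HFDL replicate 7 and 23 without HFDL replicate 9. In HFDH-HFDL, array weights called 4 genes. The difference between the diets had 3 calls with array weights, 0 to 1 without 1 mouse and 1 without SD replicate 2 and SDH replicate 17, a set under which HFDL-HFD had 56.

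Directions turned for few genes, and the cause was not tested. With all 30 mice, with HFDL replicate 10 added, with the authors' scores and with their replicate block, Mfsd4b1 was at -0.11, -0.11, -0.11 and -0.11, Pla1a at -0.08, -0.09, -0.08 and -0.08, Sirt1 at -0.21, -0.22, -0.22 and -0.22, Kynu at 0.35, 0.36, 0.34 and 0.34, Cps1 at -0.98, -1.02, -0.98 and -0.98 and Adgre1 at 0.16, 0.17, 0.16 and 0.16. Kynu was at 0.03 with array weights. Sod2 was at -0.10 with quantile normalization and -0.10 with neqc, and between -0.03 and 0.06 without 1 mouse. Scd1 was at -0.04 with both normalizations, and Il1b was between -0.36 and 0.10 without 1 mouse, with 0.10 without HFDL replicate 7. The small numbers of mice and signals near background limit the precision of dim genes such as Mogat1, Chil1 and Bex4. Bex4 did not pass the detection filter in 4 of the 9 fits without 1 mouse.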
